A study of Homo sapiens with 58 samples.

Results

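Coptidis Rhizoma, the dried rhizome of Coptis used in East Asian medicine, was tested as an ethanol extract in HepG2 cells (an established hepatocellular carcinoma line), and messenger RNA was sequenced after 24 h. The group described here was chosen by its labels and held 2 of the 58 samples of the series, 1 library at the medium dose of 56 µg/mL and 1 at the low dose of 11.2 µg/mL, which were treated as 1 group and compared with 3 libraries of cells given the solvent alone. That solvent, the vehicle, was DMSO, given as 0.1% in the sample labels and as 2% in the series text. All other libraries came from HepG2 cells given other herbal extracts for the same time, and among them the 3 libraries of the Zizyphi Fructus (jujube) ethanol extract at 500, 100 and 20 µg/mL were used as a second comparison, since their sample codes share a prefix with the Coptidis Rhizoma libraries and the vehicle codes do not. The labels of all 58 samples carry the same batch name, BatchC. They do not say what the prefix means, nor whether samples of a group were separate cultures. The p-values therefore measure only the spread between these samples, which may be technical. A library at a dose higher than 56 µg/mL was not analysed here.

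The rhizome is known for isoquinoline alkaloids, above all berberine. Berberine is a positively charged molecule that collects in mitochondria and inhibits respiratory complex I, and it is also a known ligand of the aryl hydrocarbon receptor (AhR), a transcription factor that turns on genes of xenobiotic metabolism. The composition of the extract and the respiration of the cells were not measured in these files. In liver cells, mitochondrial or amino acid stress acts through the transcription factor ATF4, oxidative and electrophile stress through NRF2, and low sterol through SREBP2, and each of these turns on a well known set of genes.

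Expected counts summed to 24055402 in the medium and 25716380 in the low library, to between 24077535 and 26409029 in the vehicle libraries and to between 26039263 and 29428781 in the Zizyphi Fructus libraries. Levels are given below as CPM, the count of a gene as its part of the library's total, scaled by TMM, a normalization that assumes that most genes do not change. The TMM factors of the Coptidis Rhizoma libraries, 0.909 at the medium and 0.876 at the low dose, lay below those of all other libraries (0.97 to 1.033), and the 2 mitochondrial ribosomal RNAs took 12.5 and 14.5% of their counts, against at most 4.08% in any other library. The medium and low libraries differed from each other by a chi-square of 50.4 per gene, against 2.19 to 6.22 between vehicle libraries, so neither was a copy of the other.

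Coptidis Rhizoma differed from the vehicle in 5784 genes, and most of these lay farther from the vehicle at 56 than at 11.2 µg/mL. The genes that rose most were the AhR target CYP1A1, the water and glycerol channel AQP3, the IGF-binding protein IGFBP1 and the mitochondrial 12S ribosomal RNA MT-RNR1. Of the genes listed for cholesterol synthesis and uptake, mitosis and DNA replication, 22 of 23, 20 of 20 and 19 of 20 fell, as did 5 of 8 on the metallothionein list. Of 14074 genes tested, 5784 had an adjusted p below 0.05 in edgeR's quasi-likelihood test and lay on the same side of the vehicle mean at both doses, which is 41.1% of all genes. Below, "rose" and "fell" are used of such genes only. Of these, 3016 rose (21.4%) and 2768 fell (19.7%), and 307 of the genes that rose and 112 of those that fell had a fitted change of at least 2-fold. Both libraries lay above all 3 vehicle libraries in 27.5% of all genes and below all of them in 25.7%. The counts of every list below are to be set beside these shares of all genes.

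The spread in this test came from all 58 libraries, since 2 against 3 samples give little information on it. When only the 5 libraries compared were fitted, 2 genes passed, MT-RNR1 and MT-RNR2 (adjusted p = 0.00237 and 0.0162). The difference between the doses is part of the spread within the group in both fits, but in the main fit the other groups add to the estimate. With the low library as the only Coptidis Rhizoma sample 2208 genes were called, and with the medium library alone 7034, against 5946 with both (162 of these had the doses on opposite sides of the vehicle mean). The fitted fold change is that of a mean of counts, so it lies closer to the medium dose, and for this reason both doses are given throughout.

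The dose order is given as values and counts, with no test between the doses, since each had 1 library. Among the genes that rose, 2714 lay farther from the vehicle at 56 µg/mL and 302 at 11.2 µg/mL, and among those that fell the numbers were 2484 and 284. The median log2 difference of the genes that rose was 0.47 at the medium and 0.22 at the low dose, and that of the genes that fell was -0.48 and -0.20. Differences of at least 2-fold from the vehicle mean were found upward in 625 and downward in 518 genes at the medium dose, and in 121 and 81 genes at the low dose. Between the doses, 1089 genes (7.74%) were at least 1.5-fold higher at the medium dose and 1000 (7.11%) at least 1.5-fold lower.

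**Figure D1:**
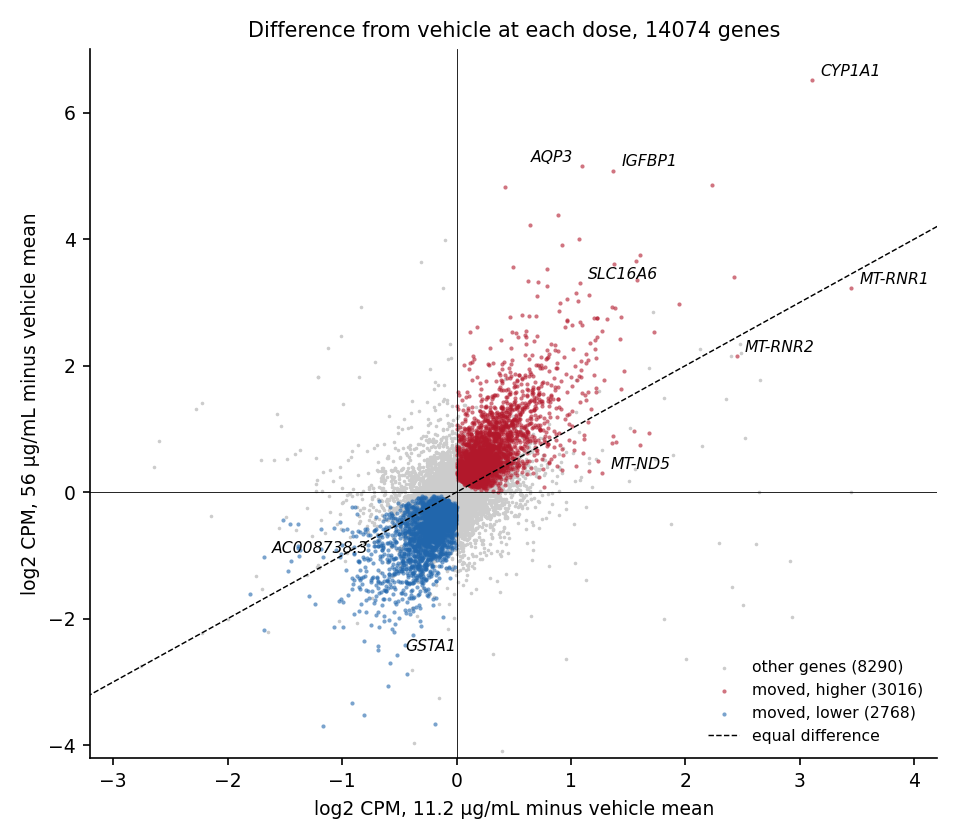
Each point is a gene, with its log2 CPM at 11.2 µg/mL minus the vehicle mean on the x axis and the same at 56 µg/mL on the y axis; red and blue points are the 3016 genes that rose and the 2768 that fell, grey points the rest, and 5 genes lie outside the axes. Most coloured points lie farther from 0 on the y axis than on the x axis, while MT-RNR1, MT-RNR2 and MT-ND5 lie below the dashed line of equal difference.

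Against Zizyphi Fructus, whose codes carry the same prefix, 3171 genes were higher (22.5%) and 2782 lower (19.8%) in Coptidis Rhizoma by the same test. Of the 5784 genes that rose or fell against the vehicle, 4841 were called in the same direction here. Both comparisons use the same 2 Coptidis Rhizoma libraries. Zizyphi Fructus itself differed from the vehicle in 6 genes, with 1182 at an unadjusted p below 0.05.

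The 2 ribosomal RNAs of the mitochondrion rose several-fold at both doses, and farther at the low dose. MT-RNR1 (12S rRNA, chrM:648-1601 in GRCh38) stood at 4813, 5377 and 4617 CPM in the vehicle libraries, 46255 at the medium and 53758 at the low dose, which is 9.37-fold and 10.9-fold the vehicle mean (fitted log2 fold change 3.34 ± 0.132 SE, adjusted p = 2.54e-23). MT-RNR2 (16S rRNA, chrM:1671-3229) stood at 20494, 20979 and 20283 CPM in the vehicle and at 91025 and 112245 CPM at the medium and low dose (2.30 ± 0.093, adjusted p = 2.8e-23). Neither gene overlapped between the groups. In the other 56 libraries of the series MT-RNR1 ranged from 4424 to 11430 CPM and MT-RNR2 from 18265 to 30265 CPM, and the 3 Zizyphi Fructus libraries had 5469, 5639 and 5826 CPM of MT-RNR1. The kit is named as one for messenger RNA, and how ribosomal RNA was removed is not given in the sources used here. A difference in that step between these 2 libraries and the rest was not tested.

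The protein-coding genes of the mitochondrial DNA changed in blocks along the molecule. The mitochondrial genome is transcribed into long precursors that are cut into single RNAs, with the ribosomal RNAs first on the heavy strand. Following the ribosomal RNAs, the complex I subunit MT-ND1 stood at 4462, 3591 and 5215 CPM in the vehicle and at 4635 and 7417 CPM at the medium and low dose, so the rise was one of the low library (0.45 ± 0.14, adjusted p = 0.0067, and 0.73 without the low library, 0.073 without vehicle replicate 2). MT-ND2 did not pass (adjusted p = 0.11), with 4262 CPM at the medium and 6048 at the low dose against 3760 to 4642 CPM. From MT-CO1 to MT-ND4, the 8 genes in between were below the vehicle mean at both doses, and all but MT-ATP8 passed.

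In that middle block MT-CO3, a subunit of cytochrome c oxidase, fell from 8341, 7488 and 7887 CPM to 5018 at the medium and 4470 at the low dose (-0.74 ± 0.084, adjusted p = 2.1e-09). MT-ND3 fell from 1974, 1556 and 2121 CPM to 1257 and 887 CPM, and MT-ND4 from 10308, 8657 and 11370 CPM to 6622 and 5060 CPM. For these 3 genes the low dose lay farther from the vehicle, whereas for MT-CO1 (15622, 13619 and 15471 CPM against 11036 and 12732 CPM) and MT-CO2 (6924, 6090 and 6995 CPM against 4495 and 5005 CPM) the medium dose did. MT-CO1 lost its call without the medium library (adjusted p = 0.12) and MT-ATP6 without the low library (0.1).

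Beyond MT-ND4 the direction turned again. MT-ND5 (chrM:12337-14148) rose from 3447, 3612 and 3496 CPM to 4345 at the medium and 8499 at the low dose, 1.23-fold and 2.42-fold (0.87 ± 0.12, adjusted p = 3e-07). MT-ND6 rose from 445, 358 and 382 CPM to 496 and 878 CPM, and MT-CYB, the cytochrome b of complex III, from 5041, 4606 and 5674 CPM to 6002 and 8366 CPM. Without the low library MT-ND6 and MT-CYB did not pass (adjusted p = 0.19 and 0.11). MT-ND6 is encoded on the opposite strand to its neighbours, and whether reads were counted by strand is not given in the sources used here, so its reads and those of an antisense transcript cannot be told apart.

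**Figure D2:**
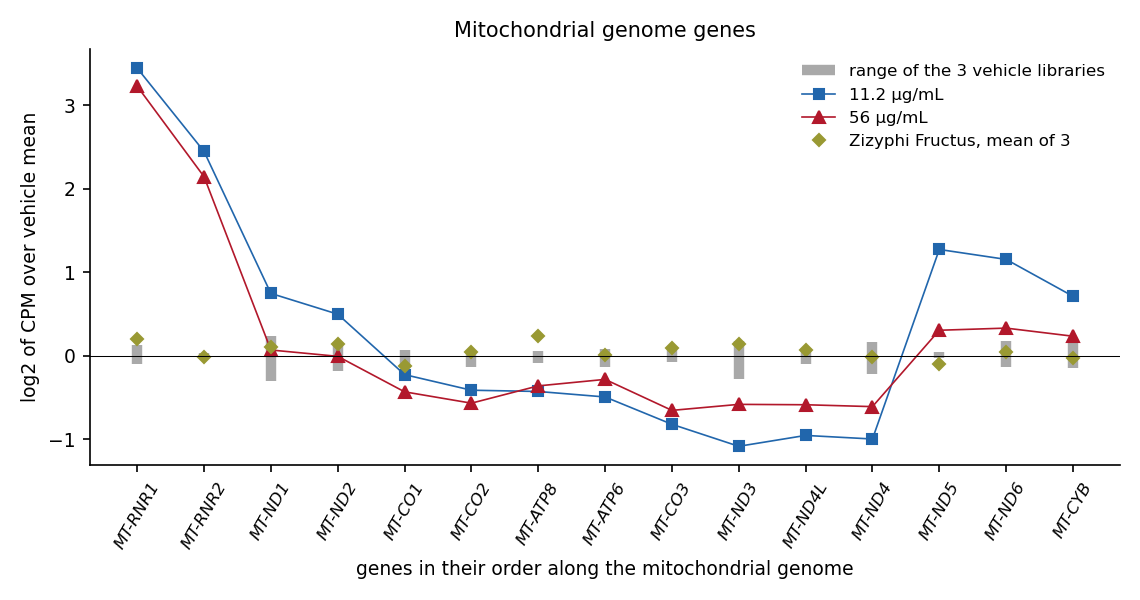
Log2 of the CPM over the vehicle mean for the 15 genes of the mitochondrial genome that were tested, in their order along the molecule, at 11.2 µg/mL (blue squares), at 56 µg/mL (red triangles) and as the mean of 3 Zizyphi Fructus libraries (diamonds), with grey bars for the range of the 3 vehicle libraries. Both doses are high at the ribosomal RNAs, below the vehicle from MT-CO1 to MT-ND4 and above it from MT-ND5 to MT-CYB, and the low dose lies farther out at both ends.

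Most nuclear genes of the same respiratory chain were not called. Of 27 nuclear complex I subunits 4 rose and 4 fell (21.4 and 19.7% of all genes did), and of 25 subunits of complexes III, IV and V 1 fell, the ATP synthase subunit ATP5F1A. Its CPM was 572 to 574 in the vehicle, 504 at the medium and 524 at the low dose (-0.15 ± 0.049, adjusted p = 0.0086, and 0.14 without the medium library). Among 10 mitochondrial chaperones and proteases 3 rose. The mitochondrial HSP70 gene HSPA9 went from 521, 554 and 529 CPM to 693 and 610 CPM at the medium and low dose. PPARGC1A, a coactivator that drives mitochondrial biogenesis, rose from 19.8, 20.2 and 19.6 CPM to 30.6 and 30.4 CPM, and was thus as high at the low as at the medium dose (0.62 ± 0.066, adjusted p = 5e-10).

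Targets of AhR that rose did so more at the medium than at the low dose. CYP1A1, a monooxygenase and the classical AhR target, stood at 12.7, 10.8 and 14.1 CPM in the vehicle libraries, 108 CPM at 11.2 µg/mL and 1146 CPM at 56 µg/mL, 8.62-fold and 91.5-fold the vehicle mean (5.65 ± 0.385, adjusted p = 4.07e-15). The medium value was above the highest of the other 56 libraries, 712 CPM in a Scutellariae Radix medium library, and the low value was not. Of 7 AhR targets tested 6 rose and none fell, against 21.4 and 19.7% of all genes. The list's median log2 difference was 3.55 at the medium and 0.50 at the low dose, where that of all genes was 0.01 at both. Of the 6 that rose, only CYP1A1, NQO1 and SLC7A5 averaged 5 CPM or more in the higher group. Both medians are values of genes below that level. At the medium and low dose NQO1 differed from the vehicle by a log2 of 1.20 and 0.43, and SLC7A5 by 0.36 and 0.25. The exception was TIPARP, at a mean of 23.8 CPM in the vehicle, 28.4 CPM at the medium and 21.8 at the low dose (adjusted p = 0.521). The amino acid transporter gene SLC7A5, also on the list, went from 792, 805 and 784 CPM to 1021 and 946 CPM. Of 168 genes, named by the rule or added as genes of the mitochondrial genome, 117 had a promoter sequence in the RefSeq table used here. The 250 bases before the RefSeq start of CYP1A1 (GRCh38.p14, chr15:74725529-74725778, minus strand) are shown since they hold the short core of the AhR response element, GCGTG, once, in capitals, 57 bases before the start. GENCODE places the start of the gene inside this window.
CYP1A1: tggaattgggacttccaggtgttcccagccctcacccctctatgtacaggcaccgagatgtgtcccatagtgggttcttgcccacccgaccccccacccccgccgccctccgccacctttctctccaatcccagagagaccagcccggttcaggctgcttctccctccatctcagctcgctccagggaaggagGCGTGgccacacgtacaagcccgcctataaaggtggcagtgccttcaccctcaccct
In windows of this length, searched on both strands, 5 of the 8 AhR targets in the table and 36.2% of all 27305 genes held that core.

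NRF2 targets rose broadly and by less. Of 19 tested 16 rose, against 21.4% of all genes, with a list median of 0.90 at the medium and 0.37 at the low dose. NQO1, a quinone reductase that both AhR and NRF2 drive, stood at 685, 662 and 665 CPM in the vehicle and at 1538 and 901 CPM at the medium and low dose. AKR1B10, an aldo-keto reductase, rose from 95, 93.5 and 99.1 CPM to 278 and 170 CPM (1.22 ± 0.092, adjusted p = 6e-14), and ABCC2, an export pump for conjugates, from 349, 336 and 336 CPM to 932 and 543 CPM. All 3 genes had both doses above all vehicle libraries, with the medium dose higher. The exception was HMOX1, the heme-degrading enzyme, which fell from 58.8, 57.2 and 61.7 CPM to 34.8 and 47.5 CPM (-0.52 ± 0.075, adjusted p = 2.5e-07). AKR1C2 did not pass.

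Genes that ATF4 and its partner CHOP turn on rose together at both doses. Of 23 tested 19 rose and 1, ALDH18A1, fell, where 21.4% of all genes rose and 19.7% fell. The list's median was 1.29 at the medium and 0.58 at the low dose. ASNS, asparagine synthetase, stood at 42.2, 45 and 44.6 CPM in the vehicle, 241 at the medium and 103 at the low dose, 5.49-fold and 2.35-fold (1.97 ± 0.13, adjusted p = 4.1e-15). SLC7A11, the cystine importer, rose from 48.1, 52.2 and 49.7 CPM to 339 and 136 CPM. GDF15, a stress hormone that acts on appetite, rose from 164, 156 and 177 CPM to 1112 and 388 CPM. The groups did not overlap for any of these genes. TRIB3, a pseudokinase induced by CHOP, went from 140, 136 and 142 CPM to 356 and 214 CPM. DDIT3, which encodes CHOP, went from 13, 11.8 and 12.4 CPM to 30.5 and 15.2 CPM, and lost its call without the medium library (adjusted p = 0.067). PHGDH, PSPH and PYCR1, enzymes of serine and proline synthesis that are also on the list, did not pass.

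The enzymes that load amino acids onto tRNA in the cytosol also rose. Of 13 cytosolic tRNA synthetases 12 rose, all with both doses above all 3 vehicle libraries. Of all genes 21.4% rose and 27.5% lay above in this way. The list's median was 0.70 at the medium and 0.35 at the low dose. MARS1 rose from 131, 136 and 133 CPM to 278 and 204 CPM (0.85 ± 0.056, adjusted p = 1.3e-15), and GARS1 from 148, 157 and 155 CPM to 319 and 218 CPM. VARS1 did not pass. The 250 bases before 1 of the 2 RefSeq starts of ASNS (chr7:97872409-97872658, minus strand) are shown for the amino acid response element TGATGNAA, which ATF4 is known to bind, in capitals.
ASNS: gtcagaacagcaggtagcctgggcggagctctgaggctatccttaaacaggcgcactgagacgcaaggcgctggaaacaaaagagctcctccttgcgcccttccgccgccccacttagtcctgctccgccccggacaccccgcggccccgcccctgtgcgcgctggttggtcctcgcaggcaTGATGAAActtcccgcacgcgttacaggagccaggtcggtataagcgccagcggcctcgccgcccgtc
It was found in 3 of 19 ATF4 and CHOP targets and 3 of 10 tRNA synthetases in the table, and in 3.89% of all genes.

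Chaperones of the endoplasmic reticulum, which the unfolded protein response is known to raise, fell in 10 of 14 cases and rose in none. CALR, the calcium-binding chaperone calreticulin, went from 1406, 1401 and 1366 CPM to 758 at the medium and 1194 at the low dose (-0.51 ± 0.075, adjusted p = 4.7e-07), and SDF2L1 from 32.1, 29.5 and 31.6 CPM to 12.5 and 21 CPM. DNAJB9, HERPUD1, HYOU1 and XBP1 did not pass. Of 12 heat shock genes, 2 of them (HSPD1 and HSPE1) chaperones of the mitochondrion, 5 fell and none rose, where 19.7% of all genes fell. Among the 5, HSPA1B (243, 241 and 240 CPM against 156 and 235 CPM) was close to the vehicle at the low dose. So was HSPB1 (49.4, 47 and 53.9 CPM against 39.1 and 46.7 CPM). DNAJA1, an HSP40 cochaperone, went from 336, 342 and 319 CPM to 243 and 296 CPM, while HSP90AA1 (2358, 2611 and 2312 CPM against 1634 and 2239 CPM) did not pass without the medium library (adjusted p = 0.14).

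AQP3 and IGFBP1 rose by more than any other gene named but CYP1A1 in the fit. AQP3 (chr9:33441154-33447633) stood at 4.12, 4.25 and 3.59 CPM in the vehicle, 144 CPM at the medium and 8.58 at the low dose, 36.2-fold and 2.15-fold (4.26 ± 0.43, adjusted p = 1.1e-10). IGFBP1 (chr7:45888357-45893668), a secreted protein that insulin represses, stood at 42.3, 38.4 and 46.1 CPM, 1431 CPM at the medium and 109 CPM at the low dose, 33.8-fold and 2.58-fold (4.19 ± 0.38, adjusted p = 7.7e-12). Both had a gap between the doses on the log2 scale of 4.06 for AQP3 and 3.71 for IGFBP1, where that of MT-RNR1 was -0.22. Elsewhere in the series AQP3 reached 153 CPM in a Scutellariae Radix high library, above the value here. Other members of the IGF axis moved less (of all genes 21.4% rose and 19.7% fell). Of 10 tested 5 rose and 2 fell, and IGF2 (1457, 1509 and 1527 CPM against 846 and 1385 CPM) did not pass without the medium library (adjusted p = 0.52).

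Among the other 15 largest rises were genes of transport and signalling. SLC16A6, a membrane transporter of the monocarboxylate family, rose from 18.3, 19.6 and 16.7 CPM to 181 at the medium and 38.4 at the low dose (2.58 ± 0.24, adjusted p = 9.2e-12). RASD1, a small GTPase induced by glucocorticoid, rose from 5.8, 5.37 and 5.56 CPM to 49 and 12.5 CPM. In both genes the doses lay above the vehicle libraries, in the order of dose. RGS10, RBM24, VGF, IGFN1, MYOF and SLC22A15 rose from at most 3.62 CPM to between 9.06 and 34.7 CPM at the medium and between 2.04 and 5.65 CPM at the low dose. NPAS1 (0.864, 0.969 and 1.26 CPM against 16.3 and 2 CPM) did not pass without the medium library (adjusted p = 0.052).

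**Figure D3:**
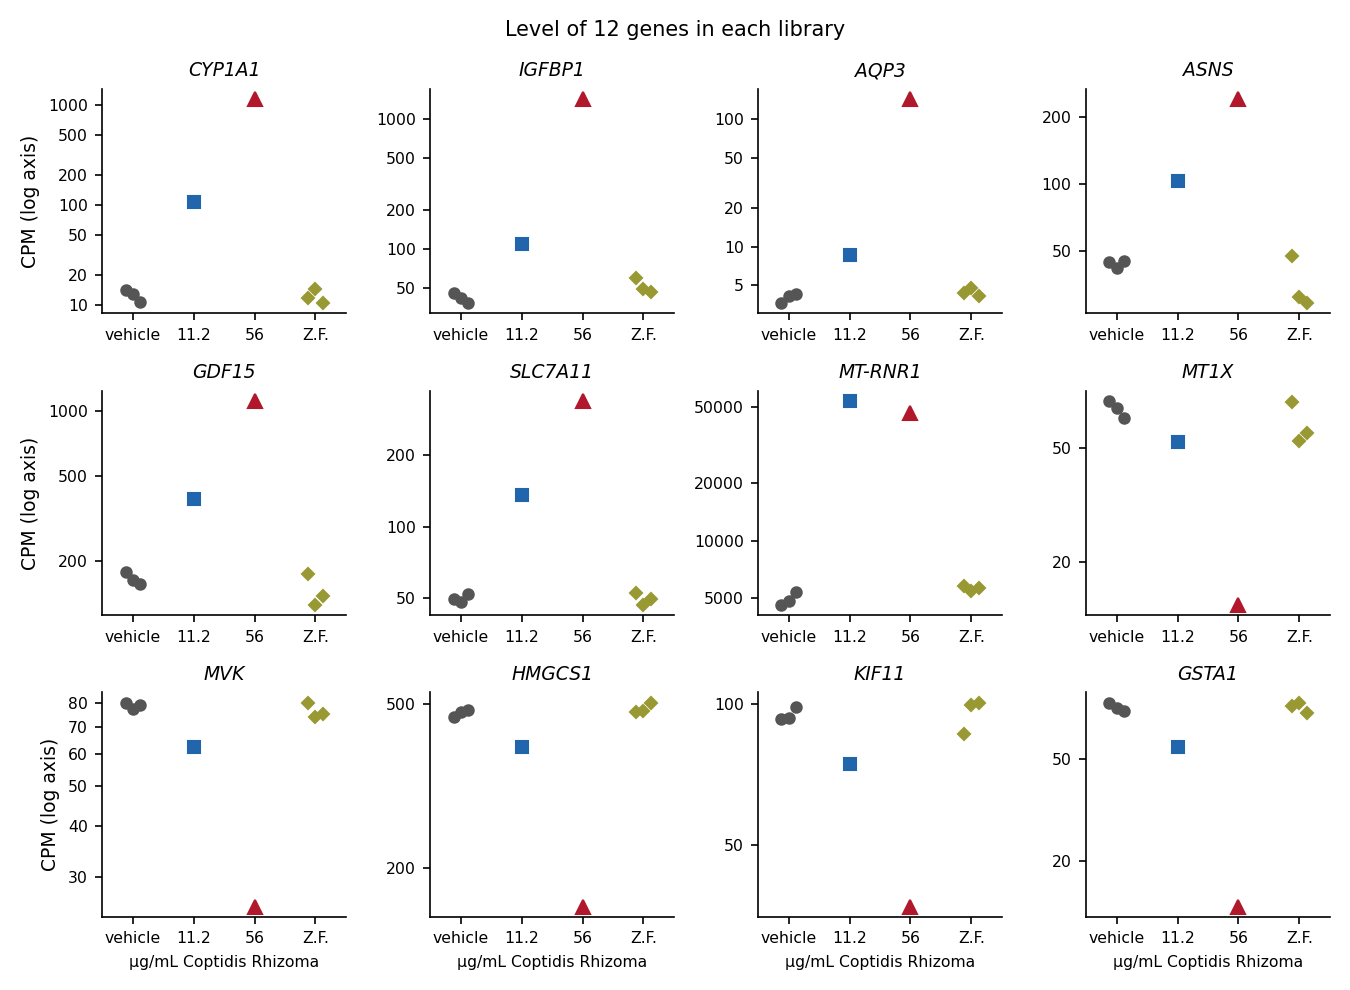
Level in CPM on a log axis of 12 genes in every library compared: vehicle (grey circles), Coptidis Rhizoma at 11.2 (blue squares) and 56 µg/mL (red triangles), and Zizyphi Fructus (Z.F., diamonds, 3 doses). In 11 of the panels the low dose lies between the vehicle and the medium dose, and in the panel of MT-RNR1 it is the highest; the Zizyphi Fructus libraries lie near the vehicle.

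Immediate early genes and targets of SRF and YAP respond to growth signals and to tension on the cytoskeleton. Of 18 tested 15 rose, against 21.4% of all genes, with a median of 1.10 at the medium and 0.41 at the low dose. EGR1, a zinc finger transcription factor, stood at 12.7, 11.6 and 11.9 CPM in the vehicle and at 75.5 and 25.9 CPM at the medium and low dose (2.07 ± 0.18, adjusted p = 3.4e-12). CCN1, a matrix protein and YAP target, rose from 13.7, 13.3 and 13.8 CPM to 45.9 and 19.6 CPM. DUSP6, the phosphatase that feeds back on ERK, rose from 55.6, 56.4 and 57.2 CPM to 145 and 94.4 CPM. AMOTL2 fell, and FOSB and SRF did not pass.

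Autophagy and lysosome genes rose in 15 of 22 cases and fell in none, where 21.4% of all genes rose and 19.7% fell. The change was smaller than that of the list above, with a median of 0.26 at the medium and 0.12 at the low dose. SQSTM1, the cargo receptor p62 and also an NRF2 target, rose from 263, 257 and 256 CPM to 779 and 409 CPM (1.20 ± 0.098, adjusted p = 6.1e-13). GABARAPL1, a membrane anchor of the autophagosome, rose from 7.74, 7.38 and 8.05 CPM to 23.7 and 10.4 CPM. CTSB, a lysosomal protease, went from 386, 390 and 397 CPM to 823 and 435 CPM, so that at the low dose it was close to the vehicle. MAP1LC3B (99.1, 96.8 and 100 CPM against 236 and 109 CPM) did not pass without the medium library (adjusted p = 0.11).

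Genes of cholesterol synthesis and uptake fell in 22 of 23 cases, and 21 had both doses below all 3 vehicle libraries. Of all genes 19.7% fell and 25.7% lay below in this way. The list had a median log2 difference of -1.19 at the medium and -0.21 at the low dose. HMGCS1, the synthase early in the pathway, stood at 479, 484 and 464 CPM in the vehicle, 161 CPM at the medium and 393 at the low dose, 2.95-fold and 1.21-fold lower (-0.78 ± 0.13, adjusted p = 7.1e-06). MVK, mevalonate kinase, fell from 77.5, 78.9 and 79.7 CPM to 25.4 and 62.4 CPM (-0.84 ± 0.13, adjusted p = 1.3e-06). SREBF2, the gene of the transcription factor SREBP2 that drives the pathway, fell from a mean of 203 CPM to 127 and 192 CPM. Against Zizyphi Fructus, HMGCS1 (-0.82, adjusted p = 1.9e-06) and MVK (-0.80, adjusted p = 2e-06) were lower as well.

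Of 15 genes of fatty acid synthesis and LXR targets 5 fell, among them the desaturase genes FADS1 (233, 240 and 227 CPM against 105 and 201 CPM) and FADS2 (233, 237 and 237 CPM against 57.3 and 189 CPM), while FASN, SCD and SREBF1 did not pass. ABCA1, the cholesterol exporter, rose. Of all genes 21.4% rose and 19.7% fell.

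All 20 genes of mitosis fell, and 18 had both doses below all vehicle libraries, against 19.7 and 25.7% of all genes. The list's median was -1.11 at the medium and -0.27 at the low dose. KIF20A, a kinesin of cytokinesis, stood at 75, 76.1 and 79.3 CPM in the vehicle and at 20.7 and 58.9 CPM at the medium and low dose, 3.70-fold and 1.3-fold lower (-0.94 ± 0.15, adjusted p = 1.1e-06). AURKB, the kinase of the chromosomal passenger complex, fell from 65.8, 63 and 68.5 CPM to 20.6 and 49.4 CPM. KIF11, the kinesin that separates the spindle poles, fell from 93.5, 98.5 and 92.9 CPM to 37 and 74.4 CPM. In bulk RNA, fewer dividing cells and less of these RNAs per cell cannot be told apart.

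DNA replication genes fell in 19 of 20 cases, with a median of -0.85 at the medium and -0.27 at the low dose. FEN1, the flap endonuclease, went from 100, 99.9 and 95.3 CPM to 46.6 and 73.8 CPM (-0.71 ± 0.08, adjusted p = 1.8e-09), and GINS1, part of the replicative helicase, from 72.4, 69.1 and 66.7 CPM to 31.1 and 53.7 CPM. CCNE2, the cyclin of S phase entry, did not pass. Of 19 p53 targets 9 rose and 5 fell, where 21.4% of all genes rose and 19.7% fell. CDKN1A, the cell cycle inhibitor p21, was 103, 102 and 103 CPM in the vehicle, 219 CPM at the medium and 113 CPM at the low dose, and did not pass without the medium library (adjusted p = 0.078). SESN2, a sensor of leucine that ATF4 also drives, rose from 25.2, 27.9 and 24.3 CPM to 63 and 38.2 CPM. The 250 bases before KIF11 (chr10:92592880-92593129, plus strand) are shown for the cell cycle homology region TTTGAA, here on the other strand, which the DREAM complex of cell cycle repression is known to bind.
KIF11: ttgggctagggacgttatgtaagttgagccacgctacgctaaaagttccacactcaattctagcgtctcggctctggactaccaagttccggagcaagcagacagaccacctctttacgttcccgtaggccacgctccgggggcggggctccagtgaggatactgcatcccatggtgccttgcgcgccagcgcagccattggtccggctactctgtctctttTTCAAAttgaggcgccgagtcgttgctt
It was present in 9 of the 16 mitosis genes in the table and in 16.1% of all genes.

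Metallothioneins, small proteins that bind zinc and copper, fell in 5 of 8 cases, against 19.7% of all genes. The list, which holds the zinc exporter SLC30A1, had a median of -1.57 at the medium and -0.40 at the low dose. MT1X stood at 68.9, 63.4 and 72.8 CPM in the vehicle, 14.2 CPM at the medium and 52.5 CPM at the low dose, 4.82-fold and 1.3-fold lower (-1.03 ± 0.19, adjusted p = 2.6e-05). MT1F fell from 62.1, 54.2 and 63.2 CPM to 10.9 and 37 CPM, and MT1G from 146, 126 and 143 CPM to 29.8 and 94.2 CPM. The Zizyphi Fructus libraries had 52.9, 56.1 and 72.4 CPM of MT1X at the high, medium and low dose, so the low dose of Coptidis Rhizoma lay just below them. For MT1G they had 91, 102 and 129 CPM, a range that holds the 94.2 CPM of the low dose. MT2A went the other way at the medium dose (a vehicle mean of 484 CPM against 763 and 478 CPM at the medium and low dose), and since its doses lay on opposite sides of the vehicle it counts as neither. These genes are near-identical copies, and RSEM's sharing of reads between them makes each single value uncertain. The 250 bases before MT1X (chr16:56682220-56682469, plus strand) are shown since they hold the core of the metal response element, here taken as TGCACNC or TGCGCNC on either strand, 4 times.
MT1X: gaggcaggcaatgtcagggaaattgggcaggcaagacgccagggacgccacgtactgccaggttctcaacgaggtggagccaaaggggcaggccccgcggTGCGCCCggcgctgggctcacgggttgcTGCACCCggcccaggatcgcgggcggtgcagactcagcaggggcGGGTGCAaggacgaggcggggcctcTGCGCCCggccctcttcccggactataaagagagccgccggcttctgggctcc
All 4 genes of the list in the table, SLC30A1 among them, held this core, as did 28.5% of all genes.

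Among the largest falls were also enzymes of detoxification and acyl-CoA metabolism. GSTA1, a glutathione transferase, fell from 79, 77 and 83.1 CPM to 13.3 at the medium and 55.6 at the low dose, 5.98-fold and 1.43-fold lower (-1.20 ± 0.19, adjusted p = 2e-06). GSTA2, its close copy, fell from 12.2, 11.8 and 13.3 CPM to 1.42 and 8.18 CPM, with the same uncertainty of shared reads. ACSM3, a medium-chain acyl-CoA synthetase of the mitochondrion, fell from 104, 107 and 109 CPM to 25.9 and 68.9 CPM. The betaine transporter SLC6A12 and the Notch regulator DTX4 also fell, DTX4 from 26.2, 28.8 and 26.1 CPM to 7.05 and 14.5 CPM (-1.32 ± 0.12, adjusted p = 7.5e-12). The noncoding gene AC087190.3 was at 19.8, 8.46 and 27.1 CPM in the vehicle and at 0 in both Coptidis Rhizoma libraries, but 1 Zizyphi Fructus library was also at 0, and without either Coptidis Rhizoma library it did not pass (adjusted p = 0.13 without the medium and 0.065 without the low library).

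Proteins that the liver secretes into plasma fell more often than they rose. Of 26 tested 13 fell and 2, AMBP and APOA2, rose, where 19.7% of all genes fell and 21.4% rose. The list had a median of -0.32 at the medium and -0.11 at the low dose. FGA, the alpha chain of fibrinogen, fell from 1016, 945 and 1032 CPM to 338 and 650 CPM (-1.01 ± 0.11, adjusted p = 6.2e-10), and FGG, the gamma chain, from 1073, 964 and 1067 CPM to 377 and 689 CPM. HP, the hemoglobin-binding haptoglobin, fell from 190, 192 and 197 CPM to 59.5 and 128 CPM. APOA1, the main protein of HDL, fell from 1223, 1167 and 1175 CPM to 677 and 755 CPM, so that most of its fall was present at the low dose. ALB, albumin, fell from 10386, 10053 and 10577 CPM to 7862 and 8823 CPM.

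Transcription factors of the hepatocyte were divided, with 5 of 15 higher and 6 lower, where 21.4% of all genes rose and 19.7% fell. NR1H4, the bile acid receptor FXR, fell from 75.5, 72.6 and 74.3 CPM to 28.6 and 59.7 CPM (-0.75 ± 0.11, adjusted p = 1e-06). NR0B2, a repressor that FXR is known to induce, rose from 48.2, 44.4 and 49.4 CPM to 87.1 and 74.8 CPM (0.77 ± 0.078, adjusted p = 1.4e-10). ONECUT2 rose from 45.6, 43.3 and 42.1 CPM to 73.9 and 66.2 CPM. For HNF4A, at 368, 380 and 371 CPM in the vehicle and 440 and 383 CPM at the medium and low dose, the call was lost without the medium library (adjusted p = 0.76) and without vehicle replicate 1 (0.062).

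Of 26 hypoxia and glycolysis genes 5 rose and 4 fell, shares near those of all genes (21.4% rose and 19.7% fell). VEGFA, the vascular growth factor and also an ATF4 target, rose from 88.6, 86.9 and 92.2 CPM to 176 and 148 CPM (0.86 ± 0.051, adjusted p = 8.6e-17). The glucose transporter SLC2A1 rose from 581, 570 and 598 CPM to 767 and 761 CPM and its relative SLC2A3 fell from 218, 219 and 229 CPM to 134 and 158 CPM. Of 11 gluconeogenesis genes and FOXO1 targets 6 rose, among them PCK2, the mitochondrial form of phosphoenolpyruvate carboxykinase (204, 199 and 197 CPM against 336 and 237 CPM), and 2 fell, among them the glucose-6-phosphate transporter SLC37A4 (53.3, 48 and 53.6 CPM against 25.7 and 41.3 CPM). PCK1 and G6PC1, the enzymes that define the pathway, did not pass. Of 14 genes of fatty acid oxidation 3 rose and 4 fell, which is also near the 21.4 and 19.7% of all genes.

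**Figure D4:**
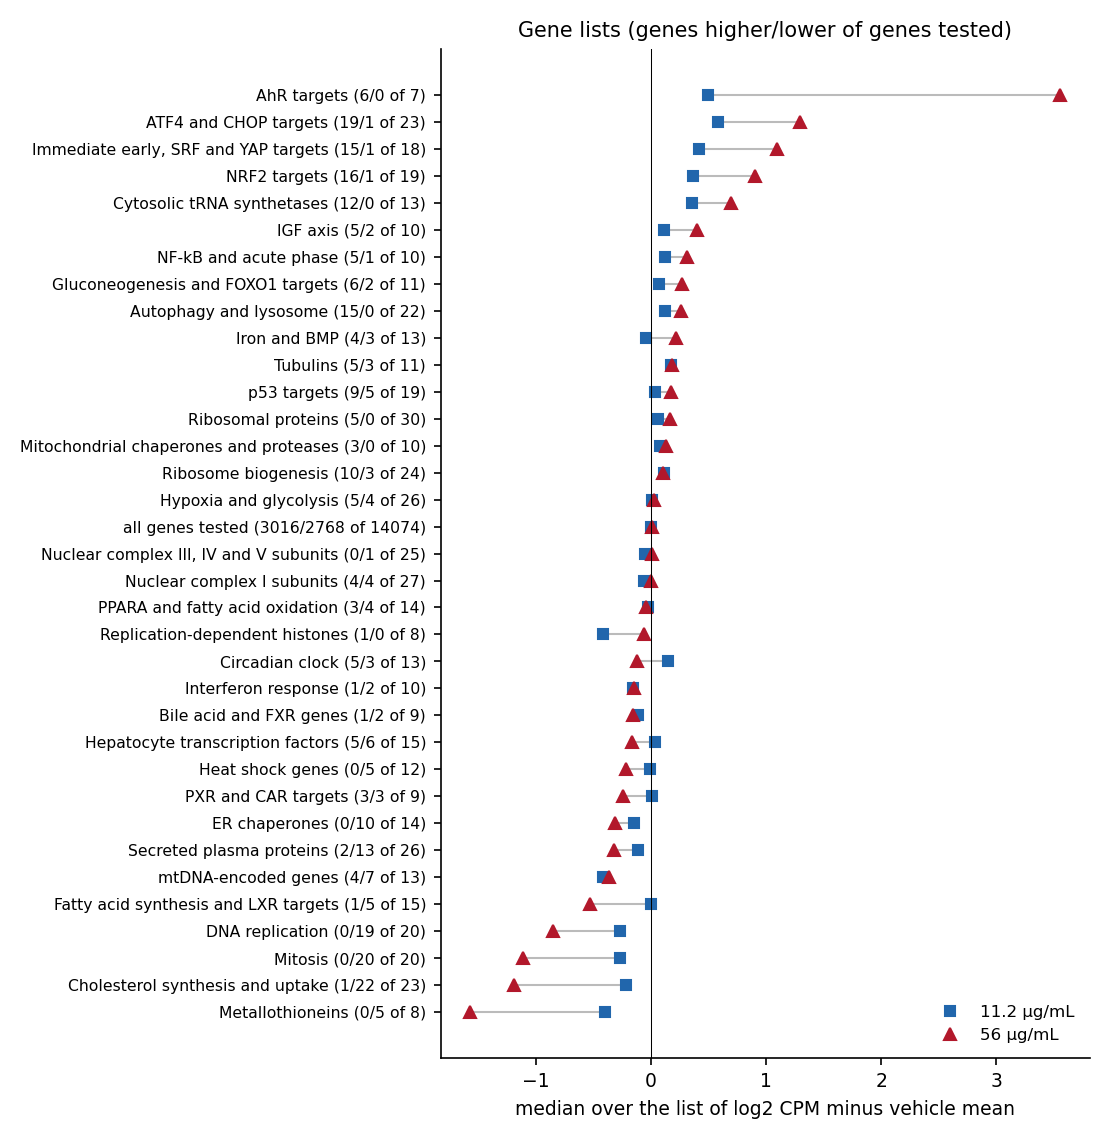
Median over each gene list of the log2 CPM minus the vehicle mean at 11.2 µg/mL (blue squares) and 56 µg/mL (red triangles), with the number of members that rose and fell of those tested in parentheses. AhR targets reach 3.55 and metallothioneins -1.57 at the medium dose, and all genes tested lie at 0.01 at both doses.

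A few genes were as high at the low as at the medium dose. CCL20, a chemokine and NF-kB target, rose from 21.7, 21.4 and 24.5 CPM to 42.2 at the medium and 48.9 at the low dose (1.01 ± 0.1, adjusted p = 8.6e-11). The Zizyphi Fructus libraries lay above the vehicle as well, at 26.4, 31.1 and 37.2 CPM, and the difference from them was smaller (0.53, adjusted p = 7.6e-05). ICAM1, an adhesion molecule, rose from 84.1, 80.2 and 86 CPM to 112 and 115 CPM, with Zizyphi Fructus at 84.6, 84.1 and 81.7 CPM. NR1D1, the clock repressor REV-ERB alpha, rose from 13.7, 13.5 and 13.7 CPM to 18.8 and 18.9 CPM. Only 16 of the 5784 genes that rose or fell lay at least 1.5-fold farther from the vehicle at the low than at the medium dose, and MT-ND5 and MT-ND6 were among the 5 of these that did not overlap the vehicle and averaged 5 CPM or more in the group where they were higher.

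Markers of the labelled cell type were present in all 5 libraries. The 10 hepatocyte markers summed to between 43709 and 44177 CPM in the vehicle, 37324 at the medium and 43892 at the low dose, and 6 of them fell. Of 8 leukocyte markers 3 (PTPRC, CD3E and MS4A1) were at 0 in all 5 libraries. The list summed to between 1327 and 1406 CPM in the vehicle and to 1838 and 1716 CPM at the medium and low dose, nearly all of it LYZ, the lysozyme gene (1370, 1294 and 1322 CPM against 1788 and 1674 CPM). Of 8 fibroblast and 8 lung markers 5 each were at 0 in all 5 libraries, and endothelial markers summed to between 4.88 and 6.58 CPM. Intestine markers summed to between 512 and 524 CPM in the vehicle, 456 at the medium and 504 at the low dose. Most of this was VIL1 (377, 386 and 377 CPM against 336 and 363 CPM).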

How the data were processed

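The deposited values were expected counts per gene, which the authors estimated with RSEM 1.3.3 after trimming with Trim Galore 0.6.5 and alignment with STAR 2.7.3a to GRCh38, per the submitters' processing notes. The annotation was not given in the sources used here. RSEM divides reads that fit several genes among them. Of the nonzero values 75.3% were whole, and all were rounded. Another 209 columns of the table were not matched to these samples and were not used.

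A gene was tested where 2 or more libraries reached 1 CPM (14074 of 60675 identifiers, 55556 with a symbol). Counts were scaled by TMM and fitted with edgeR 4.0.16 by quasi-likelihood over all 58 libraries, with both Coptidis Rhizoma libraries in 1 group and 35 residual degrees of freedom. Tests were two-sided, adjusted by Benjamini-Hochberg within each comparison, and called below 0.05. The common dispersion of 0.00257 corresponds to a variation of 5.07% between replicates. Errors of fold changes are standard errors of the fit. Log2 differences of single doses used a prior count of 2. Gene positions came from GENCODE and promoter windows from RefSeq. The method was tested on simulated data in which both Coptidis Rhizoma libraries had the same change and all genes the same dispersion. That test therefore does not cover a group whose doses differ.

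The genes named were the 15 largest rises and the 15 largest falls among called genes whose higher group averaged 5 CPM or more and whose groups did not overlap, up to 4 such members of each of 40 lists, and a fixed panel. Other list members, SREBF2, and the genes of the mitochondrial genome that the rule does not give were named after their values were seen. A few genes given by this rule are left out of the text. Members and lists were chosen with earlier results of these data known. Alternatives were another scaling (RLE), no filter, DESeq2 1.42.0, a fit of the compared libraries alone, a mean for each dose, other prior counts and leaving out each library. Leaving out the mitochondrial genes was added after seeing the data.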

Additional observations from a re-analysis of the deposited data

Results flagged for a closer look

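The 13 tested genes of the circadian clock had a list median on opposite sides of the vehicle at the 2 doses. Their median log2 difference from the vehicle mean was -0.12 at 56 µg/mL and 0.15 at 11.2 µg/mL, where that of all genes was 0.01 at both. With 1 library for each dose this difference between doses was not tested. Of these genes 5 rose and 3 (DBP, PER3 and TEF) fell at both doses, where 21.4% of all genes rose and 19.7% fell. BHLHE40, a repressor of the clock, rose from 15.2, 16.3 and 23.5 CPM to 48.7 at the medium and 31.8 at the low dose. DBP, an output factor of the clock, fell from 4.94, 5.63 and 4.89 CPM to 1.79 and 3.33 CPM. PER3 fell from 11.3, 11.1 and 11 CPM to 6.32 and 9.38 CPM, and without the medium library it did not pass (adjusted p = 0.17).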

How the results depend on the processing

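Against the vehicle 5946 genes were called, 5947 with RLE scaling, 5320 with no filter, 5591 with DESeq2 and 6243 with a mean for each dose. Fitting only the compared libraries left 2, against the vehicle as against Zizyphi Fructus, where the main count was 5953. Leaving out 1 library gave 2208 (without the medium library) to 7034 (without the low library) against the vehicle and 2077 to 6855 against Zizyphi Fructus, the same libraries giving both ends. With no filter 8069 genes differed at least 1.5-fold between the doses, against 2089, since genes with few counts then enter. Of 168 named genes MT-ND2, which was not called, changed its sign (-0.0067 without the low library, 0.49 and called without the medium library). Without the medium library 129 kept their side of the threshold, and in the fit of 5 libraries 5 did. Of those 5, only MT-RNR1 and MT-RNR2 were called, and the rest were not called in the main fit either. No paired analysis was possible because both Coptidis Rhizoma libraries carry replicate number 1, so the groups compared share fewer than 2 numbers. The doses, with 1 library each, were not tested against each other.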
